A study of Mus musculus with 25 samples.

Results

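The genes Krt5, Krt14, Krt15, Krt17 and Trp63 mark the basal layer of layered epithelia and the basal (myoepithelial) cells of the mammary gland, and they were followed across mouse mammary tumors and reference glands. The members were taken as the listed gene symbols, with the brightest probe set of each symbol over all arrays. All 5 were measured, of 19937 genes tested, and each had 1 probe set.

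Expression was measured on 25 Affymetrix whole-transcript arrays from mammary tissue, which are labelled as 4 groups. The group called K8 tumor holds 10 tumors from K8-creERT2/PIK3CA H1047R mice on a mixed FVB/CD1 background. The group called K8 gland holds 2 mammary glands from K8-creERT2 control mice. The group called Lgr5 tumor holds 10 tumors from Lgr5-creERT2/PIK3CA H1047R mice on a mixed FVB/C57/BL6 background, and the group called Lgr5 gland holds 3 glands from Lgr5-creERT2 control mice. PIK3CA H1047R is a mutant catalytic subunit of PI3-kinase, switched on by Tamoxifen given at 7 to 8 weeks of age, in cells that express keratin 8 (K8), a luminal keratin, or Lgr5, a receptor that modulates Wnt signalling. The Cre driver thus limits which cells carry the mutation, and the controls carry the driver of their line. The labels do not state whether control animals received Tamoxifen, the age at collection, or whether each tumor came from an animal of its own. The p-values therefore cover the spread among the deposited samples alone, part of which may be technical. Driver and strain background go together and cannot be told apart in any comparison between lines.

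Keratins form intermediate filaments as pairs of a type II chain and a type I chain, and in basal cells the pair is keratin 5 (type II) with keratin 14 (type I). Keratin 15 is a further type I chain of basal cells, known also from the bulge of the hair follicle. Keratin 17 is a type I chain of hair follicles and of stressed or wounded skin. Trp63 encodes p63, a transcription factor of the p53 family that basal epithelial cells of skin and mammary gland need, and keratin 5 and keratin 14 are known p63 targets in epidermis. Keratin 5 and keratin 14 filaments are anchored to the basement membrane at hemidesmosomes.

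In the RefSeq gene table (GRCm38.p6) Krt5 lies on chromosome 15 among other type II keratin genes. Krt15, Krt14 and Krt17 lie on chromosome 11, in the type I cluster, and Trp63 lies on chromosome 16. The promoter of Krt5 is shown because Krt5 was the keratin that varied most closely with Trp63 over the 25 arrays. The window covers 250 bases before to 50 bases after the annotated start, 300 bases in all, at chr15:101712856-101713155 on the minus strand (RefSeq, GRCm38.p6), and the capitals mark a match to the p53-family half-site.
Krt5 promoter: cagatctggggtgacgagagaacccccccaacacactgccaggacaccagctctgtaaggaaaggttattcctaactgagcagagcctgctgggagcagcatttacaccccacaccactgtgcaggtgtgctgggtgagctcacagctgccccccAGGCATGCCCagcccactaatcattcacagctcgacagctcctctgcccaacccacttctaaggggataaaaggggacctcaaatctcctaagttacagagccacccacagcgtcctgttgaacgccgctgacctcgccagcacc
The half-site match lies 95 to 86 bases before the start. On either strand, such a half-site was found in 2745 of 32851 promoter windows of this length (8.4%), and the motif ATAAAA, which the Krt5 window also holds, in 18.5%. The motifs TATAAA (13.6% of windows), TGANTCA (AP-1, 7.8%) and GCCNNNGGC (AP-2, 16.6%) were not in the Krt5 window. These matches describe letters in the window and are not evidence of binding. The Krt14 window of the table begins at a start inside the span of the gene, held none of these 5 motifs and is not shown. No window was matched for Krt15, Krt17 or Trp63.

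For several arrays, glands included, the tissue markers did not match the label. Some values may stand under another sample's label, which the files do not settle, so groups are named by their labels only and each tumor-gland difference is one between sets of labelled arrays. On this log2 scale no marker reads 0. Array medians lay between 6.34 and 6.43 (log2). The mean of 11 adipocyte genes was 12.46 to 12.67 in Lgr5 tumors 2, 6, 7, 8 and 9. It was 7.46 to 11.16 in K8 tumors, 9.33 to 10.87 in the other 5 Lgr5 tumors, 7.37 and 8.34 in the K8 glands and 7.15 to 9.46 in the Lgr5 glands. The mean of 9 cornified envelope genes, which mark terminally differentiated squamous cells, was 9.45 in K8 tumor 9 and 9.59 in Lgr5 tumor 10, and at most 7.80 in any other tumor. It was 9.38 and 10.02 in the K8 glands and 8.42 to 9.99 in the Lgr5 glands, so the glands had more of these squamous markers than 18 of the 20 tumors. The mean of 6 neutrophil genes was 8.09 in K8 tumor 9, 9.37 in Lgr5 tumor 10 and at most 6.43 in any other tumor, against 8.33 and 9.18 in the K8 glands and 7.13 to 9.73 in the Lgr5 glands. Limma differences of the members are given with and without these 7 tumor arrays, a set chosen after the data were seen. All 5 glands were kept in every such setting, although they too had high cornified envelope means. The permutation tests of group differences and of ratios between members used all arrays of the groups compared.

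Trp63, the transcription factor of the group, ranged from 9.14 to 10.49 (log2) with a median of 9.91 in K8 tumors, against 9.11 and 9.21 in the K8 glands. In Lgr5 tumors it ranged from 7.81 to 10.18 with a median of 9.23, against 9.84, 9.95 and 9.17 in the Lgr5 glands. All K8 tumors but tumor 9 lay above both K8 glands, and the Lgr5 tumors spanned the whole range of their glands. Lgr5 tumors 2, 6, 7, 8 and 9 held the 5 lowest Trp63 values of the series, 7.81 to 9.03.

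Krt5, the type II basal chain, ranged from 11.03 to 12.34 with a median of 12.08 in K8 tumors, against 11.19 and 11.32 in the K8 glands. In Lgr5 tumors it ranged from 8.38 to 12.13 with a median of 10.72, against 11.75, 11.55 and 11.41 in the Lgr5 glands. As for Trp63, 9 of 10 K8 tumors lay above both K8 glands and tumor 9 lay below them. The 5 fat-rich Lgr5 tumors were again the lowest of the series, at 8.38 to 9.81, whereas the other 5 Lgr5 tumors lay between 11.64 and 12.13 within or above the range of their glands.

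Krt14, the type I partner of Krt5, did not share this order. It ranged from 10.67 to 11.73 with a median of 10.85 in K8 tumors, against 11.90 and 11.97 in the K8 glands. In Lgr5 tumors it ranged from 8.23 to 12.37 with a median of 9.84, against 12.35, 11.49 and 11.96 in the Lgr5 glands. All 10 K8 tumors lay below both K8 glands. The highest Krt14 values among tumors of each line included those of the arrays with high cornified envelope genes, at 11.70 in K8 tumor 9 and 12.37 in Lgr5 tumor 10.

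Krt15, the other basal type I chain, had the widest spread within K8 tumors (SD 1.21, n = 10). It ranged there from 5.86 to 10.23 with a median of 9.14, against 6.36 and 6.33 in the K8 glands. In Lgr5 tumors it ranged from 6.24 to 9.45 with a median of 7.45, against 8.60, 7.35 and 6.47 in the Lgr5 glands. In 9 of 10 K8 tumors Krt15 was at least 8.31, above both K8 glands, and only tumor 9 lay below them. The Lgr5 tumors and Lgr5 glands overlapped over nearly their full ranges.

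Krt17, the stress-associated type I chain, ranged from 9.81 to 11.69 with a median of 10.84 in K8 tumors, against 11.07 and 11.51 in the K8 glands. In Lgr5 tumors it ranged from 7.48 to 11.87 with a median of 9.40, against 12.53, 11.42 and 11.05 in the Lgr5 glands. Both lines overlapped with their glands. Among Lgr5 tumors, tumor 1 was unusual in combining a Krt17 of 9.36 with a Krt5 of 11.64, whereas Krt17 was 10.36 to 11.87 in the other Lgr5 tumors that were not fat-rich.

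**Figure D1:**
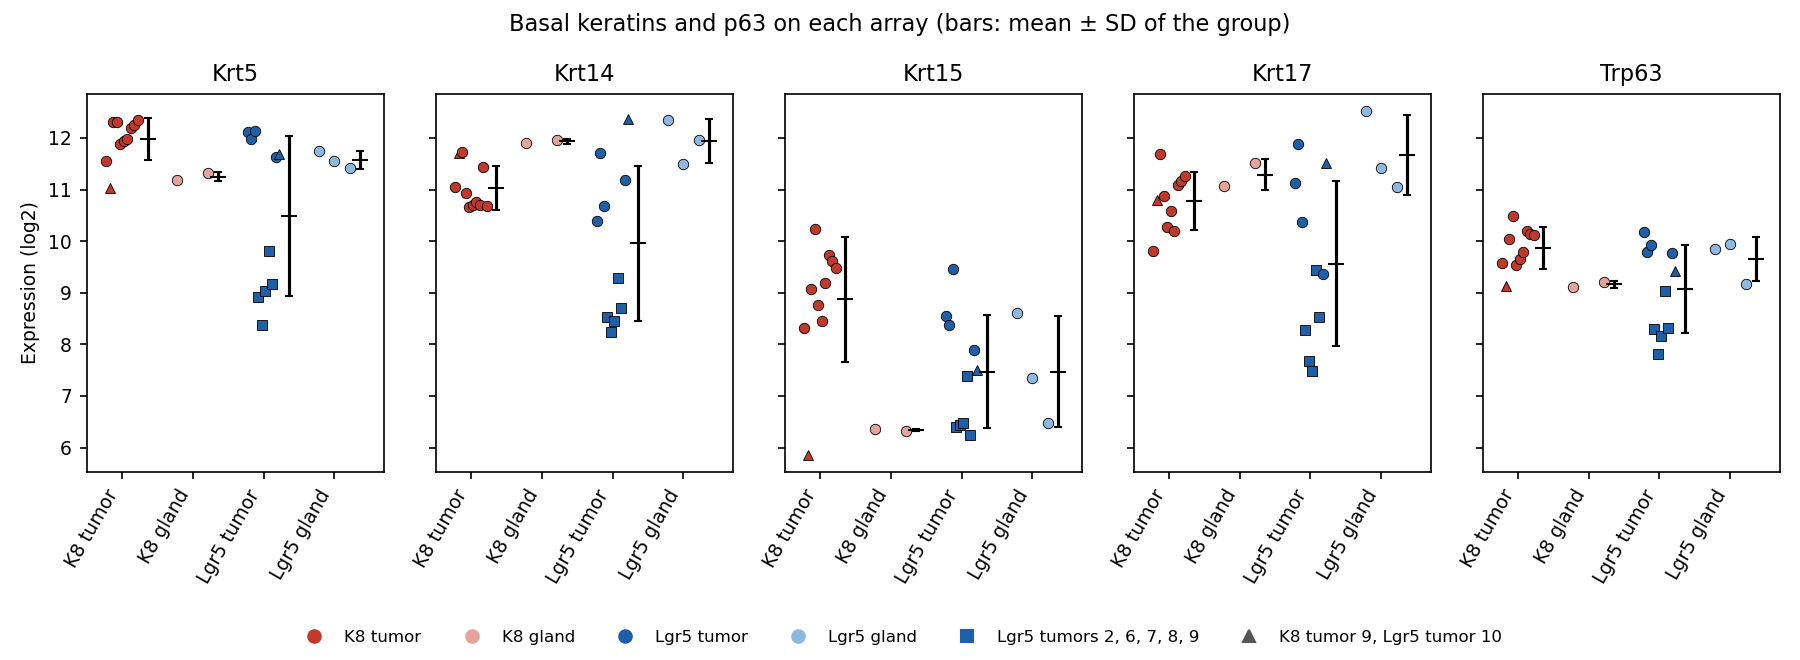
Expression (log2) of each member on each of the 25 arrays, by labelled group, with the group mean ± SD beside the points. Squares are Lgr5 tumors 2, 6, 7, 8 and 9, which lie lowest for Krt5, Krt14 and Trp63, and triangles are K8 tumor 9 and Lgr5 tumor 10. K8 tumor 9 has the lowest Krt15 value, 5.86.

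In K8 tumors against K8 glands, none of the 5 members passed the test, and 3 differences were positive and 2 negative. Mean Krt15 was 8.87 ± 1.21 in K8 tumors and 6.34 ± 0.02 in K8 glands (SD, n = 10 and 2), a log2 difference of 2.53 ± 0.84 (SE) that missed the threshold of 0.05 (limma adjusted p = 0.0605). Krt5 and Trp63 had positive differences of 0.72 ± 0.79 and 0.70 ± 0.48 (limma adjusted p = 0.658 and 0.4). Krt14 and Krt17 had negative differences of -0.90 ± 0.77 and -0.51 ± 0.85 (limma adjusted p = 0.543 and 0.803).

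The limma test called 0 of the 5 members in this comparison, where it called 9.1% of all genes (3.42% higher and 5.69% lower), and 1 member, Krt15, had an unadjusted p under 0.05. Exact two-sided permutation of the group labels, which can reach no lower than 0.0152 here, gave that smallest p for Krt14, with all 10 tumors below both glands. It gave 0.0455 each for Krt5, Krt15 and Trp63, with 9 of 10 tumors above both glands. None of these passed after adjustment over the 15 permutation tests of members (adjusted p = 0.0653 for Krt14 and 0.0758 for the other 3). Of all genes, 9.08% lay lower in every K8 tumor than in both K8 glands, as Krt14 did, and 7.23% lay higher.

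Without the 7 arrays, 4 of the 5 members passed the limma test in this comparison, where 26.8% of all genes did. Krt15 rose by 2.86 ± 0.51 (adjusted p = 0.000724), Krt5 by 0.83 ± 0.18 (adjusted p = 0.00244) and Trp63 by 0.79 ± 0.23 (adjusted p = 0.017), while Krt14 fell by 0.97 ± 0.32 (adjusted p = 0.0318). Without the 5 fat-rich Lgr5 arrays, which enter this comparison through the shared estimate of spread, Krt15 alone passed (adjusted p = 0.0431), with 12.8% of all genes. Without K8 tumor 9 alone, Krt15 passed at 2.86 ± 0.68 (adjusted p = 0.00603), with 17% of all genes called. That tumor held the lowest Krt15, Krt5 and Trp63 values of the K8 tumors. Leaving it out, alone or among the 7 arrays, was bound to raise these 3 differences. These calls are therefore no separate support for a rise. K8 tumor 9 is also the K8 tumor with the highest cornified envelope mean (9.45) and the lowest myoepithelial mean (7.60). Whether tissue composition had a part in its low Krt15 was not tested. In bulk tissue, fewer cells of a type and less RNA per cell cannot be told apart.

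In Lgr5 tumors against Lgr5 glands, Krt14 passed the test, and no test separated its difference from that of Krt17, which was larger and narrowly missed. Krt14 averaged 9.96 ± 1.50 in Lgr5 tumors and 11.93 ± 0.43 in Lgr5 glands (SD, n = 10 and 3), a fall of 1.98 ± 0.66 on the log2 scale, or 3.94-fold (limma adjusted p = 0.0445). Krt17 differed by -2.10 ± 0.72 (limma adjusted p = 0.0504). Krt5 (-1.08 ± 0.67), Trp63 (-0.58 ± 0.40) and Krt15 (0.00 ± 0.71, 95% interval -1.48 to 1.48) did not pass (limma adjusted p = 0.28, 0.347 and 1).

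The test called 1 of 5 members here, against 15.9% of all genes, 10.6% being lower and 5.28% higher in the tumors. Permutation did not call Krt14 (exact p = 0.0629, adjusted p = 0.0858), and its groups overlapped, as did those of all genes but 3.88% that were lower and 2.2% that were higher in every tumor. The Krt14 call was lost in 19 of the 25 fits that left out 1 array, controls and tumors of the other line included (limma adjusted p up to 0.193, without Lgr5 gland 1). The adipocyte genes moved with it: all 11 were higher in Lgr5 tumors, and their mean correlated with Krt14 at r = -0.75 over the 25 arrays.

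Leaving out the 5 fat-rich Lgr5 tumors reduced the Krt14 difference to -0.67 ± 0.37 (limma adjusted p = 0.337), and the limma test then called 0 of 5 members (0 also at an unadjusted p under 0.05) and 0.00502% of all genes. The differences of Krt5 (0.34), Krt15 (0.88) and Trp63 (0.17) were then positive and did not pass the test. Without all 7 arrays, Krt14 alone passed among the members (-0.94 ± 0.31, limma adjusted p = 0.0455), with 18% of genes called. In that setting Krt5 differed by 0.40, Krt15 by 1.10 and Trp63 by 0.27 (limma adjusted p = 0.124, 0.148 and 0.452).

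In K8 tumors against Lgr5 tumors, all 5 members had higher means in K8 tumors and 3 passed the test, against 21.3% of all genes (12.3% higher and 9% lower). Krt5 averaged 11.98 ± 0.41 in K8 tumors and 10.49 ± 1.55 in Lgr5 tumors (SD, n = 10 each), 2.81-fold higher (log2 difference 1.49 ± 0.46, limma adjusted p = 0.0268). Krt15 was 2.64-fold higher (1.40 ± 0.49, limma adjusted p = 0.0438) and Trp63 1.74-fold higher (0.79 ± 0.27, limma adjusted p = 0.0435). Krt17 (1.21 ± 0.49) and Krt14 (1.08 ± 0.45) did not pass (limma adjusted p = 0.0793 and 0.0857).

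The permutation test gave p = 0.0118 for Krt5, 0.0168 for Krt15 and 0.0174 for Trp63, none past the threshold after adjustment (adjusted p = 0.0653 each). For every member the 2 groups of tumors overlapped, and 0% of all genes separated them. This comparison uses the same Lgr5 tumors as the one with Lgr5 glands. The 11 adipocyte genes were all lower in K8 tumors.

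Without the 5 fat-rich arrays the limma test called 0 of 5 members and 0% of genes between the tumor groups, and 0 members had an unadjusted p under 0.05. It called 0 of 5 without all 7 arrays as well. Without the fat-rich arrays Krt5 differed by 0.07 ± 0.18, Trp63 by 0.05 ± 0.19 and Krt15 by 0.52 ± 0.55. Leaving out Lgr5 tumor 2, 6, 7 or 8 singly brought the count of called members to 0, with 11.5% to 12.1% of all genes called in these 4 fits.

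Between the glands, the 2 K8 glands lay below all 3 Lgr5 glands for Krt5 and for Krt15, as 8.72% of all genes did. No member passed the limma test (adjusted p = 1 each), no member had an unadjusted p under 0.05, and 0% of genes were called. The 95% intervals were wide, -3.18 to 0.92 for Krt15 and -1.89 to 1.89 for Krt14. The tumor-gland difference of the K8 line minus that of the Lgr5 line was largest for Krt15, at 2.53 ± 1.10. It did not pass (limma adjusted p = 0.781, unadjusted p = 0.0317), and 0% of genes were called in this contrast.

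**Figure D2:**
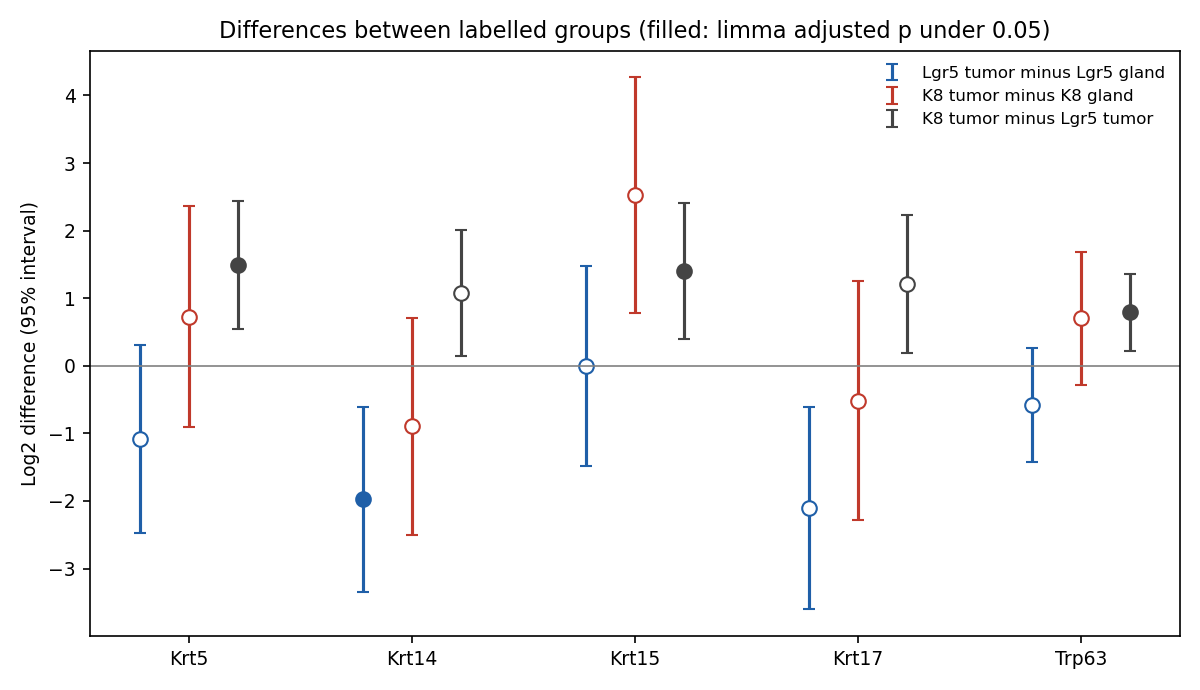
Log2 differences between labelled groups for each member, with 95% intervals from the limma fit over 25 arrays. Filled points passed the test: Krt14 in Lgr5 tumors against Lgr5 glands, and Krt5, Krt15 and Trp63 in K8 tumors against Lgr5 tumors.

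Ratios between members on the same array were also compared, a choice made after their values were seen. The log2 ratio of Krt15 to Krt14 was higher in K8 tumors than in K8 glands by 3.42, or 10.7-fold, with 9 of 10 tumors above both glands. It was higher in Lgr5 tumors than in Lgr5 glands by 1.98, with 9 of 10 tumors above all 3 glands. The exact permutation p was 0.0455 and 0.0175, and neither passed over the 30 ratio tests made (adjusted p = 0.105 and 0.0874).

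The ratio of Krt15 to Krt17 behaved alike, higher by 3.04 in K8 tumors against K8 glands and by 2.10 in Lgr5 tumors against Lgr5 glands (exact permutation p = 0.0303 and 0.007, adjusted p = 0.0944 and 0.0874). In the K8 line, the ratio of Trp63 to Krt14 was higher by 1.60 and that of Trp63 to Krt17 by 1.22, with 10 of 10 tumors above both glands. The ratio of Krt17 to Krt5 was lower by 1.24 on the log2 scale, with 10 of 10 tumors below (exact permutation p = 0.0152 for each, adjusted p = 0.0874). Of single genes, 7.23% lay higher and 9.08% lower in every K8 tumor than in both K8 glands. No such share was computed for ratios of other gene pairs. The ratio of Trp63 to Krt5 differed by -0.02 between K8 tumors and K8 glands (exact permutation p = 0.924), by 0.50 between Lgr5 tumors and Lgr5 glands (exact permutation p = 0.308) and by -0.70 between K8 tumors and Lgr5 tumors (permutation p = 0.0142, adjusted p = 0.0874). This log2 ratio was -0.57 to -0.87 in the 5 fat-rich Lgr5 tumors and -1.86 to -2.26 in the other 5. It was -1.82 to -2.35 in K8 tumors, and no test of it was made without the fat-rich arrays.

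**Figure D3:**
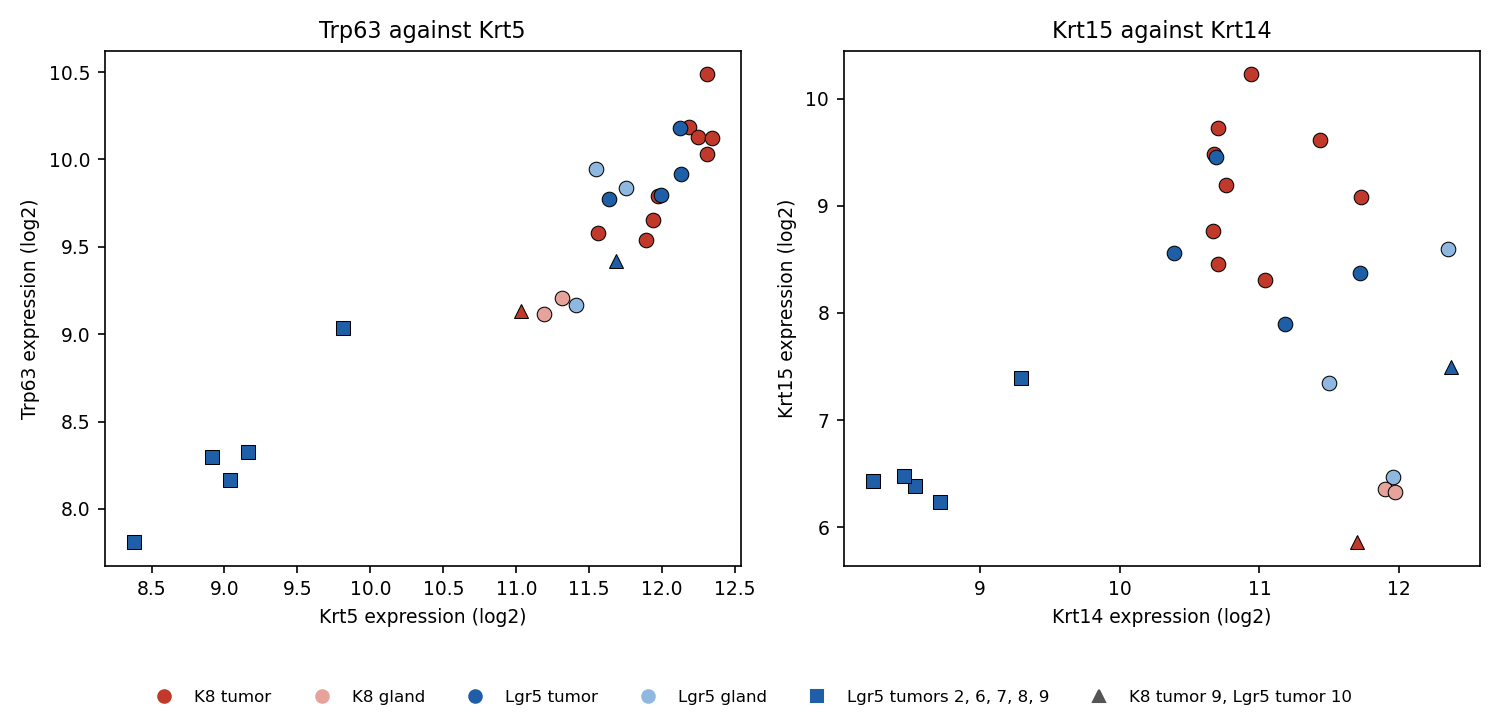
Trp63 against Krt5 (left) and Krt15 against Krt14 (right), log2 expression on each of the 25 arrays, with colours for labelled groups. Trp63 and Krt5 rise together over all arrays (r = 0.95), with Trp63 less far below Krt5 in the 5 fat-rich Lgr5 tumors. Krt15 and Krt14 follow each other less (r = 0.248), with the K8 glands, K8 tumor 9 and Lgr5 gland 3 at high Krt14 and low Krt15.

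The members differed in how closely they followed each other. Over all 25 arrays, which span 4 labels and a wide range of fat content, Krt5 and Trp63 correlated at r = 0.95 and Krt14 and Krt17 at r = 0.896. Krt15 followed Trp63 (r = 0.828) and Krt5 (r = 0.736) more than Krt17 (r = 0.426) or Krt14 (r = 0.248). Krt5 also followed Krt17 (r = 0.831) and Krt14 (r = 0.783), and Krt17 followed Trp63 (r = 0.766). These values describe the arrays and carry no test.

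Within the 10 K8 tumors, Krt15 correlated with Trp63 (Pearson r = 0.913, Spearman rho = 0.952) and Krt5 with Trp63 (r = 0.903, rho = 0.794). Krt5 and Krt15 also varied together (r = 0.935, rho = 0.745). Permutation p-values adjusted over the 20 relations computed in the tumor groups were 0.0003 and 0.001 for Krt15 with Trp63, 0.00148 and 0.0184 for Krt5 with Trp63, and 0.0016 and 0.0293 for Krt5 with Krt15, for r and rho in that order. Without the 2 tumors farthest from the median of the first gene, r was 0.905, 0.876 and 0.721. Krt5 with Krt17 passed by rho alone (r = 0.533, rho = 0.794, permutation adjusted p = 0.162 and 0.0184). Krt14 passed with no other member (r from -0.452 to 0.416).

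Tumor 9 lies apart in this group, so the relations were recomputed over the other 9 K8 tumors. Krt15 with Trp63 held (r = 0.941, rho = 0.933, exact permutation adjusted p = 0.00314 and 0.0075 over 10 relations), and Krt5 with Krt17 passed by both measures (r = 0.908, rho = 0.883, exact permutation adjusted p = 0.00449 and 0.0154). Krt5 with Trp63 (r = 0.845, rho = 0.717) and Krt5 with Krt15 (r = 0.805, rho = 0.65) passed by r but not by rho (exact permutation adjusted p = 0.0171 and 0.123, and 0.0213 and 0.166). The 10 Lgr5 tumors fall into 5 fat-rich arrays and 5 others, so no r is given for them, and sets of 5 fall below the minimum of 6 arrays used here for a correlation.

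By likeness over the 25 arrays, among 18236 named genes, the closest genes to Krt5 were Trim29 (r = 0.982), Il13ra1 (0.974), Kcnk1 (0.969), Serpinb5 (0.968) and Ccn2 (0.966). Serpinb5 encodes maspin, a serpin known from myoepithelial cells. For Trp63 they were Trim29 (r = 0.959), Fat1 (0.957), Krt5 (0.95), Agrn (0.949) and Tspan2 (0.947), so Trim29 led both lists. For Krt14 they were Abr (r = 0.97), Lpcat2 (0.965), Sfn (0.962), Elovl7 (0.96) and Efhd2 (0.957), Sfn encoding the epithelial protein 14-3-3 sigma.

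The nearest genes to Krt17 were Efna3 and Dsp (r = 0.93 each), Il1rap (0.922), Sfn (0.921) and Iffo2 (0.915). Dsp encodes desmoplakin, the desmosomal protein that binds keratin filaments, and Sfn was shared with Krt14. Krt15 had its own set, Kcnh1 (r = 0.938), Casq2 (0.915), Frem2 (0.914), Phyhip (0.912) and Ndp (0.911). None of these 5 appeared among the nearest genes of another member. The ranking spans groups that differ in fat content, and within the 9 K8 tumors without tumor 9 each of these values was lower. For Krt5, r was then 0.962 with Trim29 and 0.288 with Serpinb5. For Krt14 it was 0.322 with Abr, 0.437 with Sfn, 0.414 with Elovl7, 0.515 with Efhd2 and 0.769 with Lpcat2. It lay between 0.764 and 0.898 for the genes nearest to Krt15, between 0.618 and 0.916 for those nearest to Krt17 and between 0.709 and 0.875 for those nearest to Trp63.

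Against the means of gene lists over the same 25 arrays, Krt5 and Trp63 lay closest to hemidesmosome and laminin-332 genes (r = 0.952 and 0.966). Krt15 lay closest to myoepithelial contractile genes (r = 0.845), ahead of hormone-sensing luminal (0.785) and hemidesmosome genes (0.782). Krt14 had r = -0.13 with the myoepithelial list. Over the 9 K8 tumors without tumor 9 the order was another, with r = 0.933 for Krt5, 0.853 for Krt17, 0.711 for Krt15, 0.696 for Trp63 and 0.34 for Krt14 against the same list. Krt14 correlated with the cornified envelope mean at r = 0.705 and Krt15 at r = -0.405. Krt14 lay closer to the luminal epithelial (r = 0.918), p63 family and target (0.907) and cell cycle (0.834) means. Over the 9 K8 tumors without tumor 9, r with the cornified envelope mean was 0.392 for Krt14 and -0.153 for Krt15. Krt14 there had r = -0.161 with the luminal, -0.002 with the p63 and -0.528 with the cell cycle mean. Over the 25 arrays the adipocyte mean correlated negatively with every member, from r = -0.784 for Krt17 to -0.398 for Krt15. Over those 9 K8 tumors it was 0.189 for Krt14, -0.131 for Trp63, -0.183 for Krt15, -0.478 for Krt17 and -0.543 for Krt5.

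**Figure D4:**
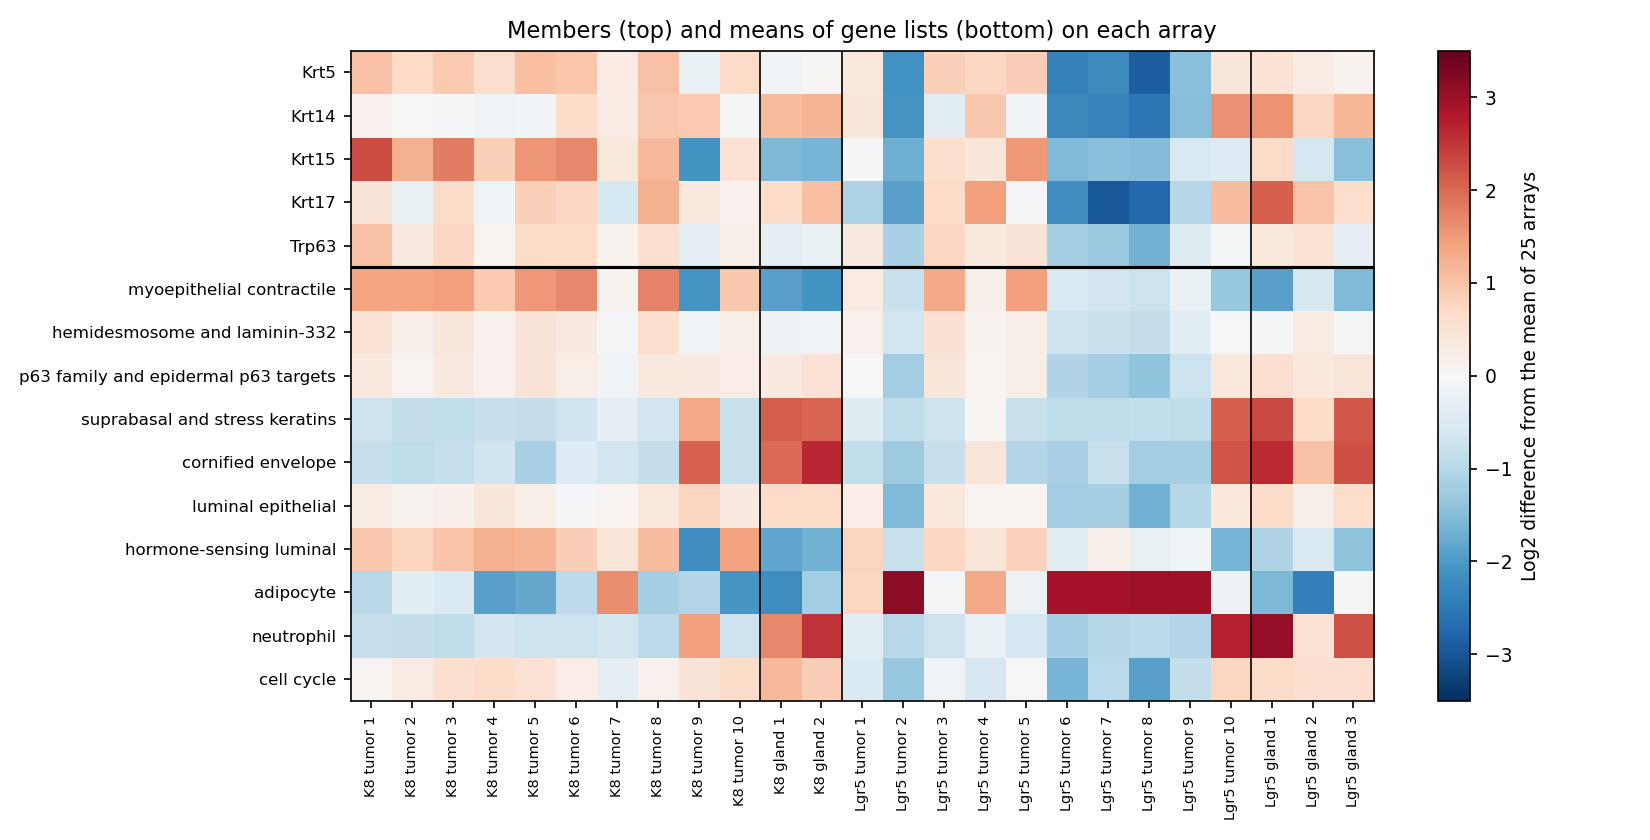
Log2 difference from the mean of the 25 arrays for the 5 members (above the line) and for the means of 10 gene lists (below it), with arrays ordered by labelled group. Krt15 and the myoepithelial contractile list are high in 9 of 10 K8 tumors and low in K8 tumor 9 and the K8 glands, and all members are low where the adipocyte list is highest.

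The hemidesmosome list (8 genes measured) links basal keratins to the basement membrane. In K8 tumors against K8 glands, Dst, whose epithelial isoform attaches keratin to hemidesmosomes, rose by 1.40 ± 0.35 (limma adjusted p = 0.02), and no other gene of the list passed. In Lgr5 tumors against Lgr5 glands Dst also rose (1.04 ± 0.29, limma adjusted p = 0.0238), and Itgb4, the integrin beta 4 chain, fell by 1.07 ± 0.31 (limma adjusted p = 0.0257). Between tumors, 5 genes were higher in K8 tumors and 1 lower, among them Lamb3 (1.23 ± 0.37) and Lama3 (1.08 ± 0.33), chains of laminin-332. Median differences of the list were 0.14, -0.39 and 0.53 in these 3 comparisons, against -0.01, -0.01 and 0.01 over all genes. Without the 5 fat-rich arrays the list's median was 0.14 in Lgr5 tumors against Lgr5 glands and 0.11 between tumors. The limma test then called 0 of 8 in both, with 3 and 1 at an unadjusted p under 0.05. Of all genes it then called 0.00502% and 0%. With all arrays it called 9.1%, 15.9% and 21.3% of all genes in the 3 comparisons.

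Of 14 measured relatives and epidermal targets of p63, 1 rose and 3 fell in K8 tumors against K8 glands (median difference -0.36). Fgfr2, a fibroblast growth factor receptor, rose by 2.85 ± 0.67 (limma adjusted p = 0.017), while Grhl3 (-2.32 ± 0.59) and Dlx3 (-1.36 ± 0.36), transcription factors of epidermal differentiation, fell. In Lgr5 tumors against Lgr5 glands 5 of the 14 fell and 0 rose (median difference -0.92), Sfn by 2.26 ± 0.74 and Grhl3 by 1.87 ± 0.50 among them. Between tumors 4 were higher in K8 tumors and 0 lower (median difference 0.71). Tfap2c, the transcription factor AP-2 gamma, had the smallest adjusted p of these (1.15 ± 0.27, limma adjusted p = 0.0137), and Igfbp3, a binding protein of insulin-like growth factors, differed by 1.20 ± 0.34 (limma adjusted p = 0.0215). Without the 5 fat-rich arrays the limma test called 0 of the 14 in the Lgr5 tumor-gland comparison and 0 between tumors, with 5 and 2 at an unadjusted p under 0.05. Of all genes it then called 0.00502% and 0%. With all arrays it called 9.1% in the K8 tumor-gland comparison, 15.9% in that of the Lgr5 line and 21.3% between tumors.

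The mean of 8 contractile genes of myoepithelial cells was 7.60 to 11.40 in K8 tumors, 7.55 and 7.76 in K8 glands, 8.33 to 11.10 in Lgr5 tumors and 7.74 to 9.10 in Lgr5 glands. These genes were higher in K8 tumors than in K8 glands in 8 of 8 cases, with a median difference of 2.63. Cnn1, encoding calponin, rose by 4.85 ± 1.24 and Myh11, smooth muscle myosin, by 4.27 ± 1.04 (limma adjusted p = 0.0227 and 0.0195). In Lgr5 tumors against Lgr5 glands 0 of 8 passed in the limma test and 4 had an unadjusted p under 0.05, with a median difference of 1.15. Without all 7 arrays 7 of 8 were higher there, with 18% of all genes called. Between tumors 2 of 8 were higher in K8 tumors, Actg2 and Lmod1. With all arrays the shares of all genes called were 9.1% in the K8 line, 15.9% in the Lgr5 line and 21.3% between tumors. The limma test called 0 of 8 between tumors without the 5 fat-rich arrays (median difference 0.51) and 0 of 8 without all 7 (median difference 0.35), with 0 at an unadjusted p under 0.05 in both. It called 7 of 8 without K8 tumor 9 and Lgr5 tumor 10. The shares of all genes called between tumors were 0%, 0% and 28.3% in these settings, in that order.

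Of the 48 keratins measured beside the 4 members, none rose against the glands of either line. In K8 tumors 14 fell, among them Krt6b (-4.47 ± 1.14), Krt6a (-4.02 ± 1.27) and Krt16 (-3.94 ± 0.93), keratins of stressed epidermis and hair follicle, and Krt1 (-3.16 ± 0.57) and Krt10 (-2.05 ± 0.47), the suprabasal pair. In Lgr5 tumors 6 fell, Krt1, Krt10, Krt16, Krt6a, Krt6b and Krt79. Between tumors the luminal keratins Krt8 (0.73 ± 0.21), Krt18 (0.60 ± 0.18) and Krt19 (0.92 ± 0.26) were higher in K8 tumors and Krt36 was lower. Median differences of the 48 were -0.61 in the K8 line and -0.42 in the Lgr5 line against the glands. These counts stand beside 9.1% of all genes called in the K8 line, 15.9% in the Lgr5 line and 21.3% between tumors. In the K8 line 26 fell without K8 tumor 9 and Lgr5 tumor 10 (19.9% of all genes called) and 23 without all 7 arrays (26.8%). In the Lgr5 line 17 fell without K8 tumor 9 and Lgr5 tumor 10 (27% of all genes called) and 8 without all 7 (18%). The limma test called 0 of 48 there without the 5 fat-rich arrays (0.00502% of all genes called), with 6 at an unadjusted p under 0.05.

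The members are also given beside their neighbours in the keratin clusters. On chromosome 11 the RefSeq order of measured genes is Krt13, Krt15, Krt19, Krt9, Krt14, Krt16, Krt17 and Krt42. In K8 tumors against K8 glands the differences of Krt15 (2.53) and Krt19 (0.32) were positive, and those of Krt13 (-0.29), Krt9 (-0.03), Krt14 (-0.90), Krt16 (-3.94), Krt17 (-0.51) and Krt42 (-0.10) negative. Of these 8 genes Krt16 alone passed the test, where 9.1% of all genes did. On chromosome 15, Krt5 lies beside Krt6a and Krt71. In the K8 line Krt5 differed by 0.72 and did not pass, while Krt6a (-4.02) and Krt71 (-2.10 ± 0.62) fell. In the Lgr5 line all 3 differences were negative, -1.08 for Krt5, -3.74 for Krt6a and -0.92 for Krt71. Krt6a alone passed, where 15.9% of all genes did. Without the 5 fat-rich arrays the Krt5 difference was 0.34 and did not pass.

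**Figure D5:**
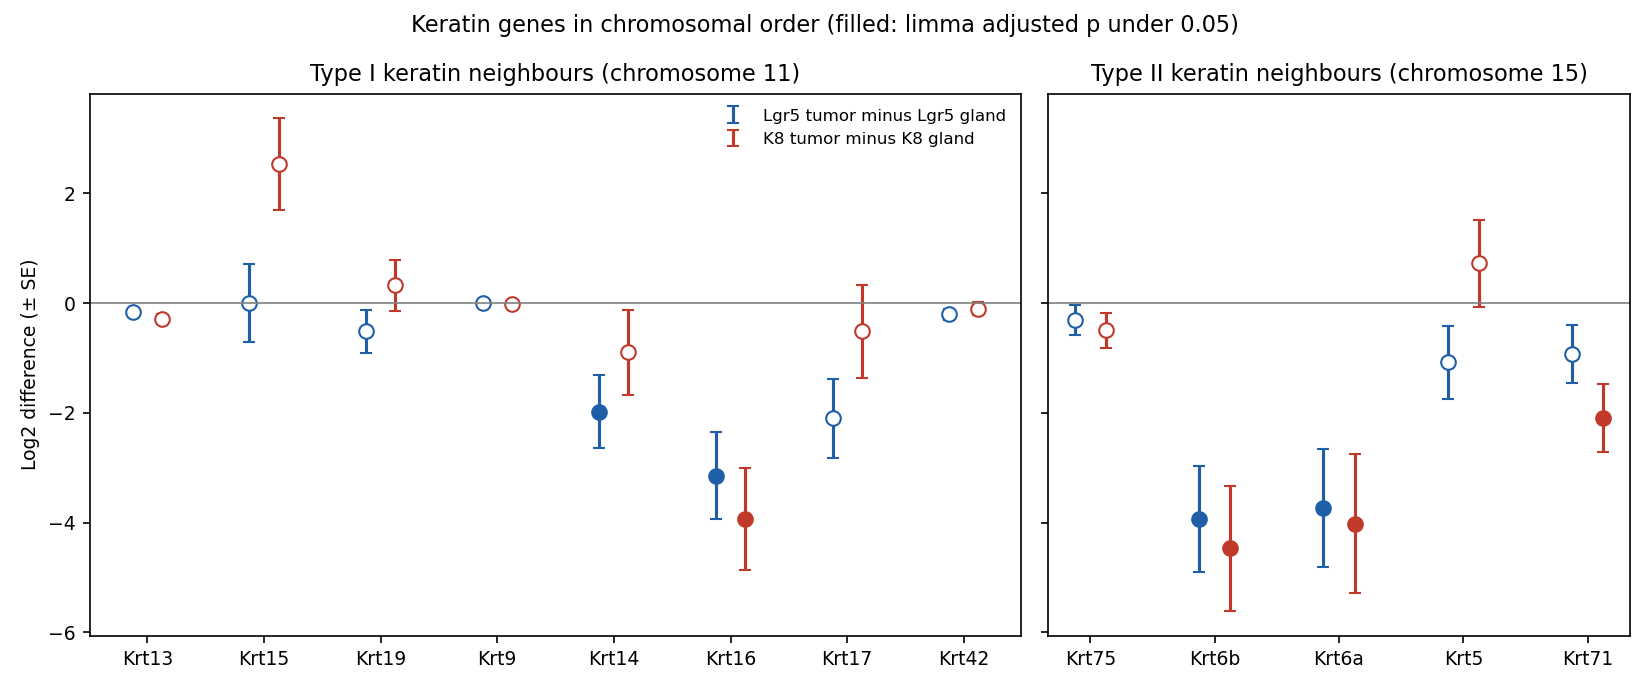
Log2 differences (± SE) of tumors against the glands of their line for measured keratin genes in chromosomal order around the members, with equal spacing. Filled points passed the limma test: Krt16, Krt6a and Krt6b fell in both lines, Krt14 in the Lgr5 line and Krt71 in the K8 line, while Krt15 and Krt5 lay above 0 in the K8 line without passing.

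Marker lists for other cell types are given beside these values, as expression in bulk tissue, since cell composition was not measured. The counts below stand beside 9.1% of all genes called in the K8 line, 15.9% in the Lgr5 line and 21.3% between tumors. In K8 tumors against K8 glands, 5 of 7 suprabasal and stress keratins, 6 of 9 cornified envelope genes, 4 of 6 neutrophil genes and 1 of 9 cell cycle genes fell. Hormone-sensing luminal genes rose in 4 of 5 cases, fibroblast genes in 4 of 8, endothelial genes in 2 of 7 and hair follicle stem cell genes in 1 of 7 (Cd34). In this comparison no luminal epithelial, adipocyte, T and B cell or skeletal muscle gene passed the limma test, with 1, 1, 0 and 0 at an unadjusted p under 0.05.

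In Lgr5 tumors against Lgr5 glands, 5 of 7 suprabasal keratins, 7 of 9 cornified envelope genes, 5 of 6 neutrophil genes, 7 of 9 cell cycle genes and 4 of 10 luminal epithelial genes fell. Endothelial genes rose in 6 of 7 cases, fibroblast genes in 6 of 8, and 1 gene each of the hormone-sensing luminal and hair follicle lists rose, while no T and B cell or skeletal muscle gene passed the limma test (4 and 0 at an unadjusted p under 0.05). Without the 5 fat-rich arrays this test called 0.00502% of all genes in this comparison. The numbers then at an unadjusted p under 0.05 were 5 suprabasal, 6 cornified envelope, 5 neutrophil and 7 cell cycle genes. They were 3 for the luminal epithelial, 3 for the endothelial and 6 for the fibroblast list. Between tumors, 8 of 10 luminal epithelial genes, 9 of 9 cell cycle genes and 1 of 5 hormone-sensing genes were higher in K8 tumors, and 6 of 7 T and B cell genes were lower. Of the hair follicle list, Lgr6 was higher and Nfatc1 lower, and no suprabasal, cornified, fibroblast, endothelial, neutrophil or skeletal muscle gene passed the limma test (2 fibroblast and 2 endothelial genes had an unadjusted p under 0.05). Without the 5 fat-rich arrays the limma test called 0 luminal epithelial, 0 cell cycle, 0 hormone-sensing and 0 T and B cell genes between tumors, with 1, 5, 0 and 2 at an unadjusted p under 0.05. It then called 0% of all genes between tumors. The median difference of the luminal list was then 0.06, against 0.81 with all arrays, and that of the cell cycle list 0.46, against 1.16. The part of each of these cell types in the members' values was not tested.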

How the data were processed

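The deposited values are a table of log2 expression for 25 arrays and 34760 probe sets, made by the authors with the affy package (version not given), per the submitters' processing notes. Background correction and normalization are not stated in the labels, and the log2 base was read from the range (4.13 to 13.9). Per the labels' protocols, 100 ng of total RNA was amplified for whole-transcript arrays. Gene symbols came from the platform annotation, in which 21640 probe sets had 1 symbol, 1321 several and 11799 none. For 954 symbols with several probe sets the brightest was used. No 2 arrays were identical (highest r = 0.995).

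Differences were tested with limma 3.58.1 in R 4.3.3 (lmFit on 4 group means, eBayes), with Benjamini-Hochberg adjustment over 19937 genes at a threshold of 0.05. Errors of differences are SEs. Single members were also tested by permutation (exact for tumors against glands, 100000 resamples otherwise). The fit was tested on simulated data. Figures were drawn with matplotlib 3.10.9. Named genes were the members, the 5 genes nearest to each by Pearson r (predicted and RNA genes left out), keratins past the test and, per list, up to 4 genes with the smallest adjusted p. The members and the gene lists were chosen with earlier results of these data known. Array number limits the precision.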

Additional observations from a re-analysis of the deposited data

Results flagged for a closer look

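Krt15 in K8 tumor 9 was 5.86 (log2), far below the next lowest K8 tumor at 8.31. The gap made up 0.561 of the range of the 10 K8 tumors, above Dixon's critical value of 0.466. It was the only value flagged among 10 groups of values examined (5 members in each of the tumor groups), and chance flags about 1 in 20 groups.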

How the results depend on the processing

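Numbers of members called, of 5, are given for Lgr5 tumors against Lgr5 glands (1), K8 tumors against K8 glands (0) and K8 tumors against Lgr5 tumors (3). The share of all genes called with all arrays was 15.9%, 9.1% and 21.3%, and the share in each setting follows its count. Against Lgr5 glands the count was 2 with trend and robust settings (15.2%), with dim genes removed (30.1%) or without K8 tumor 9 and Lgr5 tumor 10 (27%), and 3 with array weights (39.2%). It was 0 with the adipocyte or luminal mean as a covariate (0% and 0.015%), with the replicate block (8.71%), with only the groups compared (3.46%) or without the 5 fat-rich arrays (0.00502%). Against K8 glands it was 1 with array weights (31.8%), dim genes removed (15.7%), the adipocyte covariate (14.5%), without the 5 fat-rich arrays (12.8%) or without K8 tumor 9 and Lgr5 tumor 10 (19.9%), 3 with the luminal covariate (13.7%) and 4 without all 7 arrays (26.8%). Between tumors it was 5 with array weights (40.1%) or without K8 tumor 9 and Lgr5 tumor 10 (28.3%), 1 with only the groups compared (16.2%), and 0 with either covariate, without the 5 fat-rich arrays or without all 7 (0% in each). Leaving out 1 array gave 0 to 2, 0 to 1 and 0 to 5, and 0 for the gland and line contrasts. With both K8 glands kept, the shares of all genes in these fits were 1.26% to 25%, 6.56% to 17% and 11.5% to 28.6%. In the same fits, with both K8 glands kept, the shares were at most 0.00502% for the gland and line contrasts. The causes were not tested. Genes called ranged from 0 to 7815, 30 to 6341 and 0 to 7997 over all settings.

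Signs turned as follows, with values in log2. In Lgr5 tumors against Lgr5 glands, Krt5 was 0.78 and 0.56 with the adipocyte and luminal covariates, 0.34 without the 5 arrays and 0.40 without 7. Trp63 was 0.44, 0.25, 0.17 and 0.27, and Krt15 1.30, 0.77, 0.88 and 1.10 in the same settings. Krt15 was also 0.0558 with array weights and 0.47 with the replicate block, and leaving out 1 array gave -0.50 to 0.56. Krt17 in K8 tumors against K8 glands was 0.10 with the luminal covariate. Between tumors, Krt14 was -0.17 and -0.22 with the covariates, -0.23 without 5 and -0.0306 without 7 arrays, Krt17 was -0.34, -0.0424 and, without 5, -0.0691, and Krt5 and Trp63 were -0.10 and -0.077 with the adipocyte covariate. Between glands, Krt14 was -0.0699 with array weights, -0.0113 after quantile normalization, -0.16 and -0.28 with the covariates and -0.22 to 0.21 leaving out 1 array, and Krt17 was -0.69 to 0.0542 leaving out 1 array. The line contrast of Krt14 was -0.005 with the adipocyte covariate, -0.23 without 5 and -0.0308 without 7 arrays.

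The replicate numbers were not used as pairs in the main fit. Deviations of same-numbered tumors correlated at -0.147 to 0.513, over 0.1 in 4 of 10 pairs. Those of differently numbered tumors correlated at -0.657 to 0.661. Such correlations also reflect tissue content shared by chance, so they cannot exclude that some tumors were paired. With the replicate block Krt14 differed by -2.03 ± 0.80 in Lgr5 tumors against Lgr5 glands (limma adjusted p = 0.119) and 2 members were called between tumors, with 21.3% of all genes called there. The settings that left out the 5, 2 or 7 arrays were chosen after seeing the data.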
